A study of Capra hircus with 6 samples.

Results

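The antigen presentation machinery was examined as 10 genes in the hypothalamus of female Anhuai goats before and at puberty. They were taken by name: B2M, TAP1, TAP2, TAPBP, PSMB8, PSMB9, PSMB10 and NLRC5 for the class I pathway (8 genes), and CIITA and CD74 for the class II pathway (2 genes). They are 10 of 20225 genes in the table of mRNA levels. All 10 passed the filter of a mean of at least 0.1 FPKM (fragments per kilobase of transcript, scaled to the mapped depth of the library), as did 16397 genes in all. Each of the 10 was measured through a single transcript.

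The samples were 3 pubertal goats, 4.5 to 5 months old, and 3 that were prepubertal, 2.5 to 3 months old, all untreated, kept on the same farm, with 1 RNA-seq library of hypothalamus per goat. By the study's methods puberty was judged from oestrus, as detected by males, and from the look of the vulva, and the pubertal goats were killed late in the follicular phase. Stage therefore goes with age, body size and cycle phase, and these cannot be told apart. The steps between the lowest FPKM values gave an estimated depth of 17330000 to 23580000 fragments per library. This is below the mapped read pairs of the study's methods, so that it and the fragments per gene are estimates of what entered the deposited values. Of the tissue markers, PMCH of the lateral hypothalamus was at 673.4 to 2173 FPKM and the astrocyte gene GFAP at 2268 to 2698 FPKM in the 6 libraries. AVP, a hormone of the hypothalamus, was listed at 0 in all 6. Pubertal replicate 3 stood apart in several genes of neighbouring tissue and in POMC, which is also a hypothalamus marker. TTR, a choroid plexus gene, was at 309 FPKM there against 1.14 to 53.4 FPKM in the other 5 libraries, and POMC, a gene of the arcuate nucleus and the pituitary, was at 428.6 FPKM against 22.9 to 85.1 FPKM. KCNJ13, another choroid plexus gene, was at 14.4 FPKM against 1.43 to 1.86 FPKM, and the collagen gene COL1A2 at 94.4 FPKM against 12.02 to 46.5 FPKM.

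MHC class I molecules show peptides of a cell's own proteins to cytotoxic T cells. The peptides are cut by the proteasome, carried into the endoplasmic reticulum by the TAP transporter and loaded there onto a heavy chain that is held by beta-2-microglobulin. Class II molecules show peptides of engulfed proteins to helper T cells, and CD74, the invariant chain, guards their groove until they reach the endosome. In healthy brain both pathways are low, with microglia, blood vessel cells and the cells around vessels as the usual sources, and interferon raises most of these genes. The heavy chain genes themselves are not analysed here.

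Of the 10 genes, 9 were higher on average in pubertal goats, and no gene passed the test across all genes. The test was limma on log2(FPKM + 1), two-sided, with Benjamini-Hochberg adjustment over 16397 genes, and 0% of all genes and 0 of the 10 had an adjusted p under 0.05. At an unadjusted p under 0.05, B2M, TAP1, PSMB9, NLRC5 and CD74 were higher in pubertal goats, which is 5 of 10 against 3.51% of all genes (575 of 16397), and 0 of 10 were lower against 1.65% (271 of 16397). The same 5 genes had all 3 pubertal libraries above all 3 prepubertal libraries, against 5.91% of all genes, and 0 of 10 had the reverse order, against 3.84%. The 10 genes were chosen with earlier results of these data known, so that these counts are no test of the set. The median log2 difference was 0.28 for the class I genes and 0.57 for the class II genes, and it was -0.0007 for all genes tested, of which 49.8% were above 0. Centring the libraries on their medians split the genes at an unadjusted p under 0.05 into 454 higher and 407 lower. Since the tissue is a mixture of cells, fewer cells of a type and less RNA per cell cannot be told apart in any of these values.

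**Figure D1:**
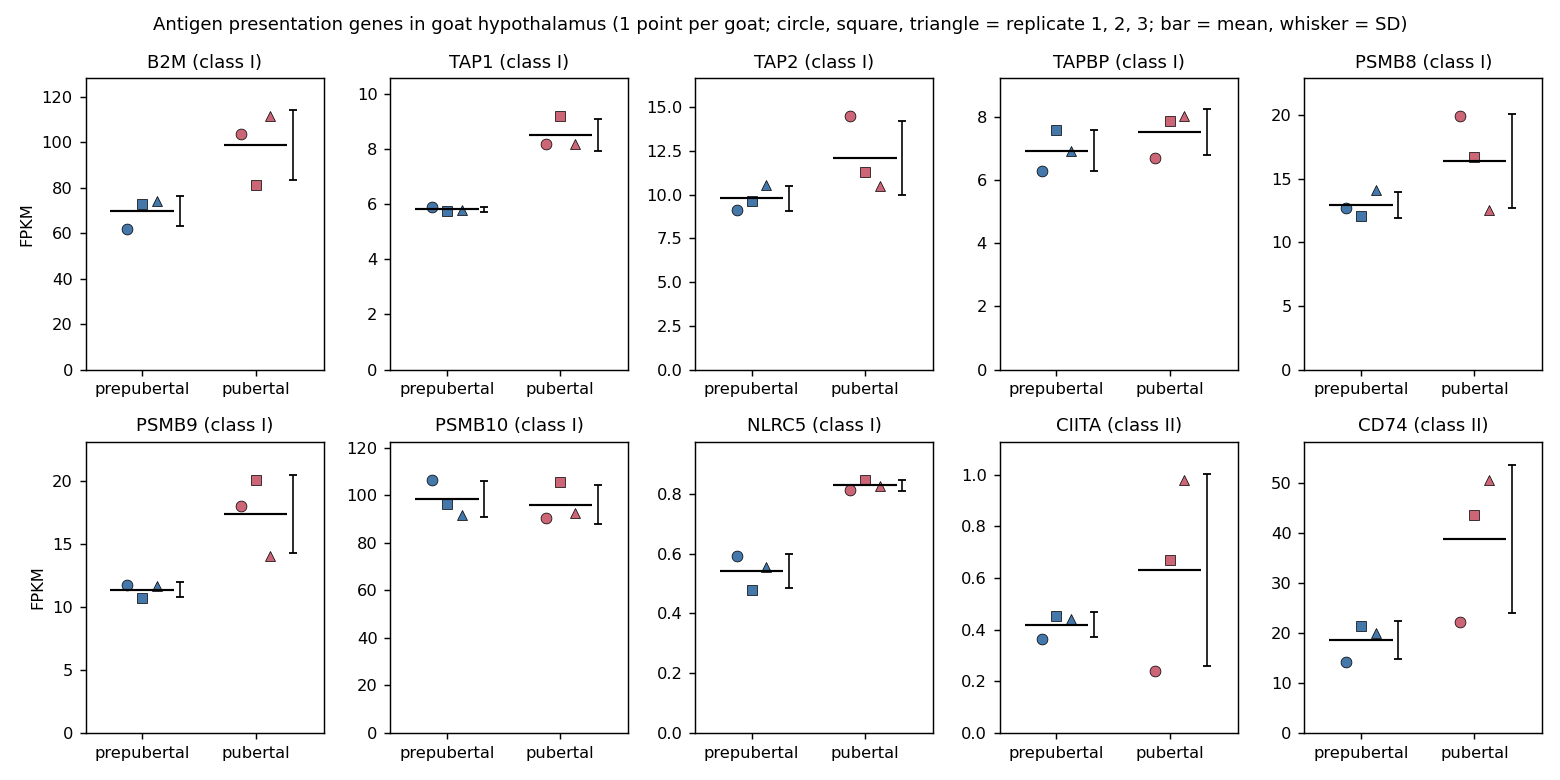
FPKM of the 10 antigen presentation genes, 1 panel per gene, with 1 point per goat (circle, square and triangle for replicates 1, 2 and 3), the group mean as a bar and the SD as a whisker. B2M, TAP1, PSMB9, NLRC5 and CD74 have all 3 pubertal points above the prepubertal ones, and the panels of TAP2, TAPBP, PSMB8, PSMB10 and CIITA overlap.

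B2M encodes beta-2-microglobulin, the light chain shared by all class I molecules. It gave 103.5, 81.3 and 111.3 FPKM for pubertal replicates 1 to 3, and 61.95, 72.8 and 74.0 FPKM for the prepubertal ones. Every pubertal goat was above every prepubertal goat, with pubertal replicate 2 closest to the other stage. The means were 98.7 ± 15.6 and 69.6 ± 6.66 FPKM (SD, n = 3 each), a ratio of 1.42. The log2 difference was 0.49 (95% interval 0.18 to 0.80), with an unadjusted p of 0.0060 and a limma adjusted p of 0.779.

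TAP1 and TAP2 form the transporter that carries peptides into the endoplasmic reticulum. TAP1 measured 8.17, 9.19 and 8.19 FPKM in pubertal replicates 1 to 3 and, in the prepubertal replicates, 5.91, 5.74 and 5.78 FPKM. The stages were well apart for TAP1, and the prepubertal goats lay within 1.55% of each other as a coefficient of variation, which is less than the 5.79% to 6.32% that counting alone would give each of them. The log2 difference was 0.48 (95% interval 0.25 to 0.72), with an unadjusted p of 0.0014 and a limma adjusted p of 0.676. TAP2 reached 14.5, 11.3 and 10.5 FPKM in the pubertal goats, replicates 1 to 3, against 9.14, 9.65 and 10.5 FPKM in the prepubertal goats. Its stages overlapped, since pubertal replicate 3 lay just under prepubertal replicate 3, and its log2 difference of 0.27 (95% interval -0.04 to 0.58) missed an unadjusted p of 0.05. It ran from 0.14 without pubertal replicate 1 to 0.36 without pubertal replicate 3. TAP1 was lower than TAP2 in 6 of 6 libraries, at 0.548 to 0.812 of the TAP2 level in FPKM.

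TAPBP encodes tapasin, which bridges the transporter and the class I molecule. It gave 6.68, 7.85 and 8.01 FPKM for pubertal replicates 1 to 3, and 6.28, 7.59 and 6.91 FPKM for the prepubertal ones. The stages overlapped, and the lowest goat of each stage was replicate 1. The log2 difference was 0.10 (95% interval -0.17 to 0.38), with a limma adjusted p of 0.966.

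PSMB8, PSMB9 and PSMB10 are the catalytic subunits that turn a proteasome into an immunoproteasome, and they take the places of PSMB5, PSMB6 and PSMB7. PSMB9 measured 18.0, 20.1 and 14.0 FPKM in pubertal replicates 1 to 3 and, in the prepubertal replicates, 11.8, 10.7 and 11.7 FPKM. All pubertal goats were above all prepubertal goats, with pubertal replicate 3 the lowest of its stage. PSMB9 rested on an estimated 173, 209 and 108 fragments in pubertal and 101, 109 and 122 in prepubertal replicates 1 to 3. The counting error was 6.92% to 9.93%. The prepubertal coefficient of variation, 5.32%, was below the 9.04% to 9.93% that counting alone would give those goats. The means were 17.4 ± 3.09 and 11.4 ± 0.606 FPKM (SD, n = 3 each), a ratio of 1.53. The log2 difference was 0.56 (95% interval 0.25 to 0.87), with an unadjusted p of 0.0033 and a limma adjusted p of 0.733. PSMB8 reached 19.9, 16.7 and 12.5 FPKM in the pubertal goats, replicates 1 to 3, against 12.7, 12.1 and 14.1 FPKM in the prepubertal goats. Pubertal replicate 3 fell among the prepubertal goats, and the log2 difference of 0.30 (95% interval -0.07 to 0.67) had an unadjusted p of 0.098. Without pubertal replicate 3 it was 0.47, with an unadjusted p of 0.0068 and a limma adjusted p of 0.886, and without pubertal replicate 1 it was 0.15, with an unadjusted p of 0.309. PSMB10 gave 90.3, 105.5 and 92.4 FPKM for pubertal replicates 1 to 3, and 106.6, 96.6 and 91.9 FPKM for the prepubertal ones. Its stages overlapped, and it was the 1 gene of the 10 with a lower pubertal mean, with a log2 difference of -0.03 (95% interval -0.26 to 0.19).

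The constitutive subunits were on the other side of 0 in the mean, and none passed an unadjusted p of 0.05. PSMB5 was at 91.2 to 106.6 FPKM in pubertal and 101 to 115.5 FPKM in prepubertal goats, PSMB6 at 156.1 to 190 and 164 to 205 FPKM, and PSMB7 at 218.1 to 236.2 and 225.5 to 262.8 FPKM. Their log2 differences were -0.12, -0.12 and -0.10.

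The share of immunoproteasome to constitutive subunit was therefore taken within each library. PSMB9 was at 0.0949, 0.112 and 0.0899 of PSMB6 in pubertal replicates 1 to 3, and at 0.0579, 0.0652 and 0.0570 in prepubertal replicates 1 to 3. PSMB8 was at 0.200, 0.157 and 0.138 of PSMB5 in pubertal and at 0.110, 0.119 and 0.132 in prepubertal replicates 1 to 3. Both ratios were higher in every pubertal goat than in any prepubertal goat, though PSMB8 on its own overlapped. For PSMB8/PSMB5 the gap was narrow, with 0.138 in pubertal replicate 3 against 0.132 in prepubertal replicate 3. PSMB8 rested there on an estimated 146 and 223 fragments, a counting error of 8.27% and 6.69%. Counting alone could therefore give a gap of this size. PSMB10 was at 0.371 to 0.456 of PSMB7 over the 6 libraries, and its stages overlapped. On the log2 scale the pubertal mean exceeded the prepubertal mean by 0.68 for PSMB9/PSMB6, by 0.42 for PSMB8/PSMB5 and by 0.07 for PSMB10/PSMB7. An exact permutation test, two-sided, gave p = 0.1 for each of the first 2, which is the smallest p that 3 goats against 3 can give, and p = 0.5 for PSMB10/PSMB7. After adjustment over the 6 ratios tested these exact p-values were 0.3, 0.3 and 0.6. The 3 subunits of the immunoproteasome also stood at unlike levels, and PSMB10 was 4.54 to 8.39 times PSMB8 in FPKM in each library.

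**Figure D2:**
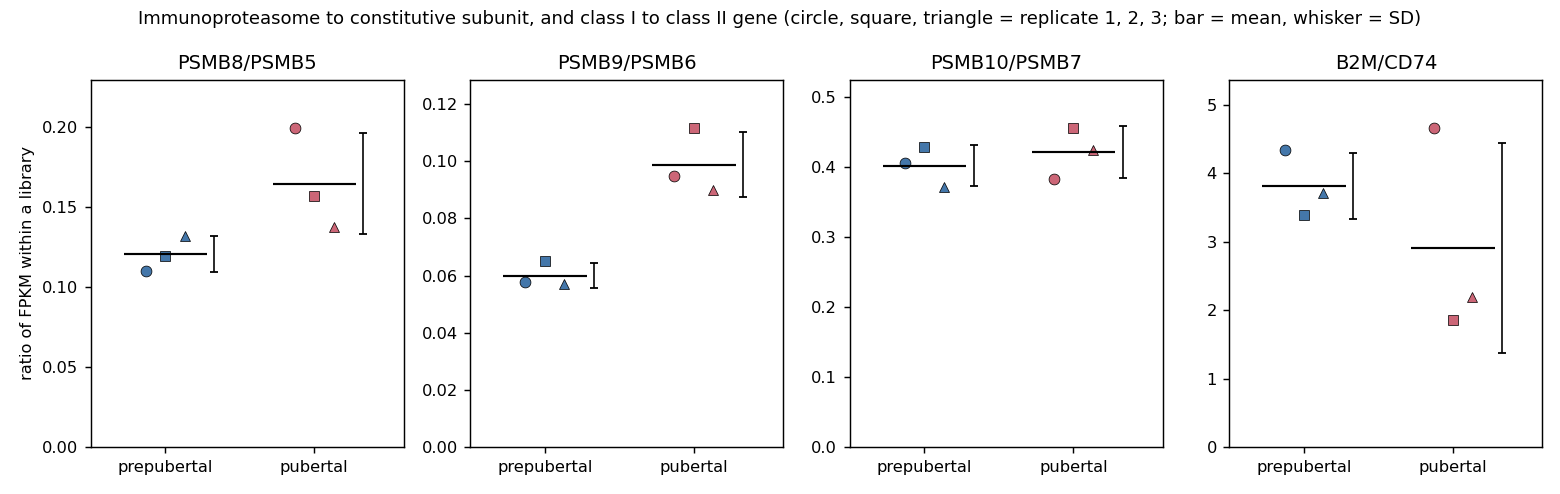
Ratio of FPKM within a library for the 3 pairs of immunoproteasome and constitutive subunits and for B2M/CD74, with 1 point per goat, the mean as a bar and the SD as a whisker. PSMB8/PSMB5 and PSMB9/PSMB6 do not overlap between the stages, and PSMB10/PSMB7 and B2M/CD74 do.

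NLRC5 and CIITA are related coactivators: NLRC5 acts on the promoters of class I genes and CIITA on those of class II genes. NLRC5 measured 0.811, 0.847 and 0.827 FPKM in pubertal replicates 1 to 3 and, in the prepubertal replicates, 0.591, 0.480 and 0.556 FPKM. The pubertal goats were close together and all above the prepubertal ones. These levels rested on an estimated 94 to 127 and 72 to 86 fragments per library, a counting error of 8.87% to 11.8%. The ratio of the means was 1.53, while the log2 difference was 0.25 (95% interval 0.01 to 0.48), since adding 1 to FPKM below 1 shrinks it. The unadjusted p was 0.043 and the limma adjusted p 0.958. The unadjusted p stayed under 0.05 in 2 of 14 alternatives, with 0.059 at a pseudocount of 0.1 and 0.157 after quantile normalization.

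CIITA reached 0.240, 0.669 and 0.980 FPKM in the pubertal goats, replicates 1 to 3, against 0.364, 0.453 and 0.440 FPKM in the prepubertal goats. Pubertal replicate 1 was the lowest of all 6 goats and pubertal replicate 3 the highest, so that the pubertal stage spread around the other. The estimated fragments were 13, 37 and 41 in pubertal and 17, 25 and 25 in prepubertal replicates 1 to 3, so that counting alone gave an error of 15.6% to 27.7%. The log2 difference of 0.17 (95% interval -0.22 to 0.57) did not pass. It was 0.36 without pubertal replicate 1 and 0.02 without pubertal replicate 3.

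CD74 gave 22.2, 43.7 and 50.7 FPKM for pubertal replicates 1 to 3, and 14.3, 21.5 and 19.9 FPKM for the prepubertal ones. Pubertal replicate 1 was barely above prepubertal replicate 2, and pubertal replicates 2 and 3 were far above all others. Pubertal replicate 1 and prepubertal replicate 2 held an estimated 672 and 669 fragments of CD74, a counting error of 3.86% and 3.87%. Counting alone could therefore give the gap between these 2 goats. The means were 38.8 ± 14.9 and 18.6 ± 3.81 FPKM (SD, n = 3 each), a ratio of 2.09. The log2 difference was 0.97 (95% interval 0.30 to 1.63), with an unadjusted p of 0.010 and a limma adjusted p of 0.795. It was 1.32 without pubertal replicate 1 and 0.74 without pubertal replicate 3.

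**Figure D3:**
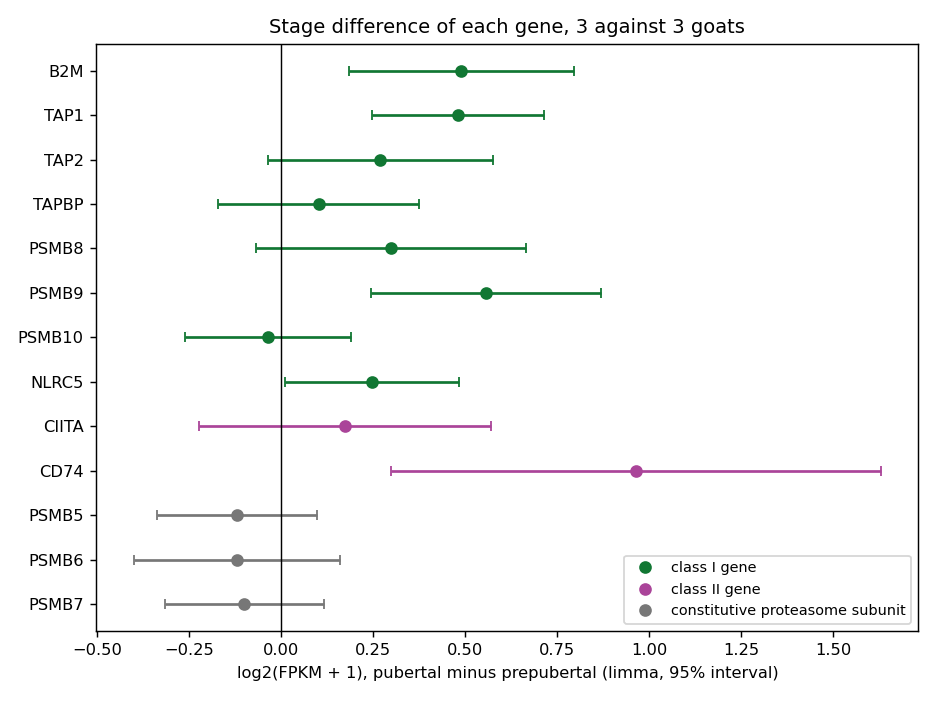
Difference of log2(FPKM + 1), pubertal minus prepubertal, with its 95% interval from limma, for 8 class I genes, 2 class II genes and 3 constitutive proteasome subunits. CD74 has the widest interval (0.30 to 1.63), and the intervals of B2M, TAP1, PSMB9, NLRC5 and CD74 lie above 0 before adjustment over all genes.

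Ordered by mean FPKM over the 6 libraries, which is a level per length of transcript, the genes ran from PSMB10 (97.2) and B2M (84.2) through CD74 (28.7), PSMB8 (14.7), PSMB9 (14.4), TAP2 (10.9), TAPBP (7.22) and TAP1 (7.16) to NLRC5 (0.685) and CIITA (0.524). Neighbours in this order kept it in 6 of 6 libraries for B2M over CD74, CD74 over PSMB8, PSMB9 over TAP2, TAP2 over TAPBP and TAP1 over NLRC5. PSMB10 and B2M, PSMB8 and PSMB9, TAPBP and TAP1, and NLRC5 and CIITA changed places between libraries. Among all genes tested, B2M stood above 92.6% of genes in mean FPKM and CD74 above 77%, while NLRC5 and CIITA stood above 11.3% and 9.53%.

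Class I was set against class II through B2M and CD74 and through the coactivators, with 1 added to each FPKM before log2 ratios were taken. B2M was at 4.67, 1.86 and 2.20 times CD74 in pubertal and at 4.34, 3.39 and 3.71 times in prepubertal replicates 1 to 3. B2M was above CD74 in 6 of 6 libraries, with a mean log2 ratio of 1.63 (exact sign-flip permutation test, two-sided, p = 0.03125, adjusted p = 0.0375, where 0.03125 is the smallest that 6 libraries allow). Any pair in the same order in all 6 libraries gives this p, and the pair was chosen with earlier results known. It holds for these 2 genes only, since the class I genes other than B2M and PSMB10 had lower means than CD74. Pubertal replicates 2 and 3 were below all prepubertal goats in B2M/CD74 and pubertal replicate 1 was above them. The stage difference of the log2 ratio was -0.48 (exact permutation p = 0.4, adjusted 0.6), and it ran from -0.87 without pubertal replicate 1 to -0.22 without pubertal replicate 2. That of NLRC5/CIITA was 0.07 (exact permutation p = 0.8, adjusted 0.8), and 0.19 with 0.1 added in place of 1. That of TAP1/TAP2 was 0.21 (exact permutation p = 0.3, adjusted 0.6), with 0.12 to 0.36 when 1 library was left out. A shift of balance between the class I and class II genes was not detectable with 3 goats per stage.

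The 10 genes did not peak in the same goat. Pubertal replicate 1 was highest for TAP2 and PSMB8, pubertal replicate 2 for TAP1, PSMB9 and NLRC5, and pubertal replicate 3 for B2M, TAPBP, CIITA and CD74, while PSMB10 was highest in prepubertal replicate 1. The lowest value fell in prepubertal replicate 1 for 4 genes, in prepubertal replicate 2 for 4 and in pubertal replicate 1 for 2. In the RefSeq order of goat genes (assembly ARS1.2, used for names and order only), PSMB9, TAP1, PSMB8 and TAP2 are 4 neighbouring protein-coding genes. PSMB9 and TAP1 shared their highest goat, and so did PSMB8 and TAP2. Of 13 other protein-coding neighbours of the 10 genes, 1 was higher at an unadjusted p under 0.05 (LOC102168547, next to B2M, log2 difference 0.30) and 0 were lower, and their median log2 difference was 0.02. Of all genes tested, 3.51% were higher and 1.65% lower at this threshold.

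**Figure D4:**
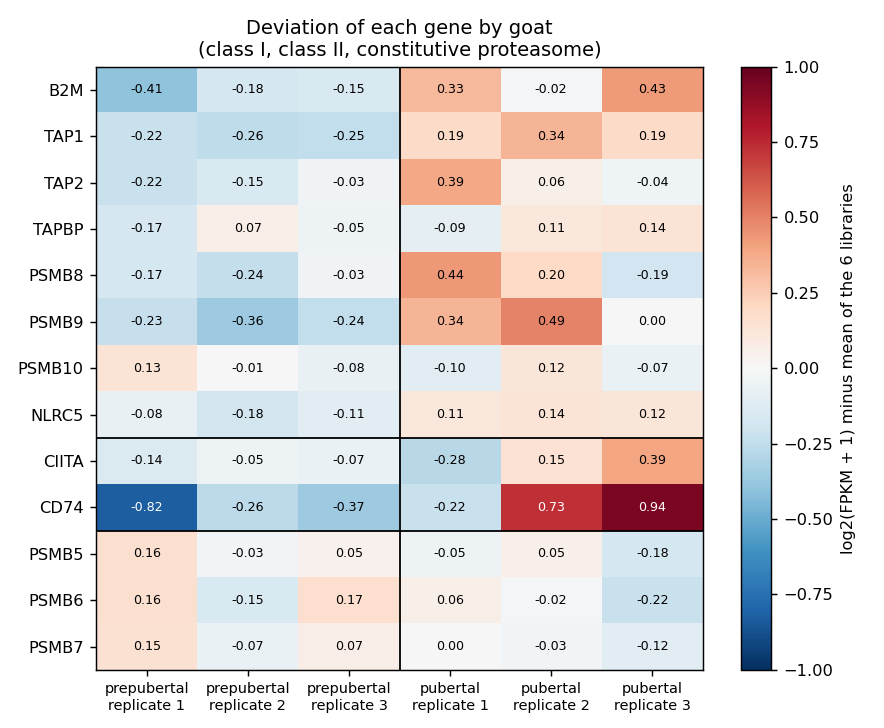
Deviation of log2(FPKM + 1) from the mean of the 6 libraries, 1 column per goat, for the 8 class I genes, 2 class II genes and 3 constitutive proteasome subunits, in red for above and blue for below. CD74 runs from -0.82 in prepubertal replicate 1 to 0.94 in pubertal replicate 3, and PSMB8 is 0.44 above its mean in pubertal replicate 1 and 0.19 below it in pubertal replicate 3.

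Over the 6 libraries B2M was correlated with each of the other 9 genes in FPKM, with Pearson's r from -0.63 for PSMB10 to 0.75 for NLRC5. In exact permutation tests over the 9 relations, no adjusted p was under 0.05, the lowest being 0.3625 for r and 0.3 for rho. For CD74, r was 0.65 (exact permutation p = 0.136) and rho 0.89 (exact permutation p = 0.0333, adjusted p = 0.3). When pubertal replicates 1 and 3, which lay farthest from the median B2M level, were left out, r was 0.87. For NLRC5, r was 0.75 (exact permutation p = 0.119) and rho 0.66 (exact permutation p = 0.175), and r was 0.57 without those 2 libraries. Since B2M did not overlap between the stages, these values mix stage with goat. After the stage means were taken off, r was 0.06 for CD74, -0.47 for NLRC5, -0.93 for TAP1 and -0.85 for PSMB9. It was -0.89 for PSMB10, -0.26 for PSMB8, 0.10 for TAPBP, 0.17 for TAP2 and 0.19 for CIITA. These values were not tested, and the prepubertal spreads of TAP1 and PSMB9 were below their counting errors. In a search of 14080 genes with a mean of at least 1 FPKM, those most like B2M on the log2 scale over the 6 libraries were FZD4 (r = 0.9985), a Wnt and norrin receptor of blood vessels, ECSCR (r = 0.9946), an endothelial surface protein, and LOC102173339 (r = 0.9908). Those most like CD74 were MED20 (r = 0.979), a subunit of the Mediator complex, LOC102177501 (r = 0.9785) and SLC9A3R2 (r = 0.9778), a scaffold of membrane transporters. With 6 libraries, 59 genes exceeded an r of 0.95 with B2M and 53 did with CD74.

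The other genes of both pathways had medians near 0. For the counts below, 3.51% of all genes tested were higher at an unadjusted p under 0.05 and 1.65% were lower. Of 12 genes for peptide trimming and class I loading, 0 were at an unadjusted p under 0.05 and the median log2 difference was 0.01. The chaperones CALR, HSPA5 and CANX led this list in level, and CALR, which holds the class I molecule in the loading complex, was at 284.6 to 318.6 FPKM in pubertal and 295.5 to 312.1 FPKM in prepubertal goats. Of 4 proteasome activator genes 0 were called, with a median of 0.03. PSME1 and PSME2, the interferon-inducible activator pair, had log2 differences of -0.04 and 0.05, and PSME3, the nuclear activator, 0.01. Of 9 class II processing genes 0 were called, with a median of 0.01. CTSS, the cathepsin that trims the invariant chain, measured 110.8, 74.1 and 74.4 FPKM in pubertal replicates 1 to 3 and, in the prepubertal replicates, 72.1, 91.7 and 64.6 FPKM. Its stages overlapped, while those of CD74 were apart by a gap within counting error. CTSB and CTSD, further lysosomal proteases, had log2 differences of -0.04 and 0.18. Of 7 genes for the factors that CIITA and NLRC5 bind at MHC promoters 0 were called, with a median of -0.05 and log2 differences of -0.11 for RFXANK, -0.05 for CREB1 and -0.08 for NFYB.

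The genes of interferon gamma signalling had a median log2 difference of 0.09. The receptor chains IFNGR1 and IFNGR2 had log2 differences of 0.09 and 0.05. IFNG itself had a mean of 0.0816 FPKM, below the filter of 0.1 FPKM, and was not tested. It was listed at 0 in pubertal replicate 3 and all prepubertal libraries, and at 0.177 and 0.313 FPKM in pubertal replicates 1 and 2.

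Of 24 interferon-stimulated genes, 17 were higher in pubertal goats at an unadjusted p under 0.05, against 3.51% of all genes. In 16 all pubertal libraries were above all prepubertal ones, against 5.91% of all genes, and the median log2 difference was 0.47. This list was drawn up after values of these libraries had been seen and is no independent evidence of direction. IFI6, a mitochondrial protein made on interferon, gave 292.1, 249.2 and 328.4 FPKM for pubertal replicates 1 to 3, and 159, 155.3 and 163.2 FPKM for the prepubertal ones (log2 difference 0.85, limma adjusted p 0.230). ISG15, a ubiquitin-like modifier named here after its values were seen, had a log2 difference of 1.08 and the same adjusted p. IFIT5 and EIF2AK2, which both bind viral RNA, had log2 differences of 0.21 and 0.16. Summed over the list, the level was 610.5 to 790.9 FPKM in pubertal and 441.1 to 461.2 FPKM in prepubertal goats. It was highest in pubertal replicate 3, the library that stood apart in genes of neighbouring tissue. Without it, 12 of the 24 genes were at an unadjusted p under 0.05, as were 6 of the 10 antigen presentation genes, with PSMB8 and TAP2 added and NLRC5 lost at 0.057. In that fit 2.7% of all genes were higher (442 of 16397) and 1.35% were lower (222 of 16397). The log2 differences of B2M, TAP1, PSMB9 and CD74 were then 0.40, 0.51, 0.70 and 0.74.

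**Figure D5:**
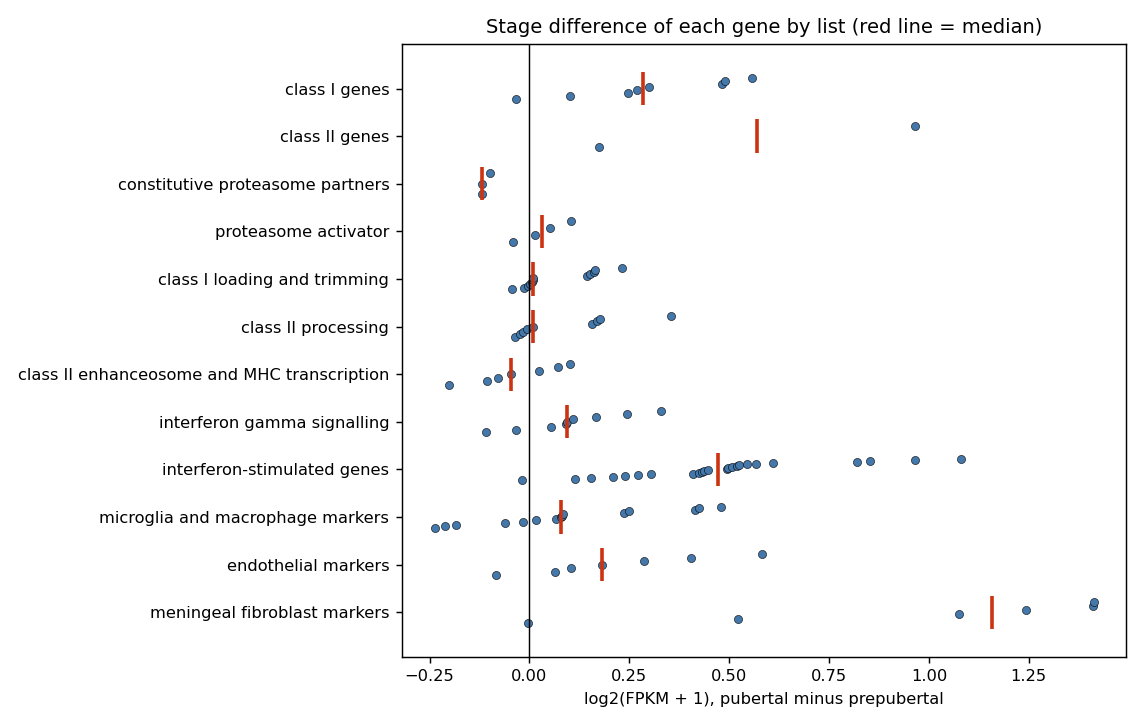
Difference of log2(FPKM + 1), pubertal minus prepubertal, of every gene tested in 12 lists, with 1 point per gene and a red line at the median of the list. The class I genes have a median of 0.28, the interferon-stimulated genes 0.47 and the meningeal fibroblast markers 1.16, while the lists of loading, class II processing and promoter factors have medians of 0.01, 0.01 and -0.05.

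Markers of cells that carry these molecules were read beside the 10 genes. For the counts of these and all later marker lists, 3.51% of all genes tested were higher at an unadjusted p under 0.05 and 1.65% were lower. Of 15 microglia and macrophage markers, 4 were higher at an unadjusted p under 0.05, namely the complement genes C1QA, C1QB and C1QC and the integrin ITGAM, with log2 differences of 0.42, 0.42, 0.48 and 0.25 and limma adjusted p-values of 0.427 to 0.893. The others overlapped. CX3CR1 was at 31.3 to 32.6 FPKM in pubertal and 28.2 to 36.4 FPKM in prepubertal goats, and P2RY12 at 37.8 to 48.5 and 43.9 to 57.2 FPKM. The summed level of the list was 564.7 to 691.1 FPKM in pubertal and 543.7 to 615 FPKM in prepubertal goats, which overlapped. Among 4 markers of perivascular macrophages, F13A1 was higher at an unadjusted p under 0.05, with summed levels of 5.41 to 8.79 and 3.49 to 5.78 FPKM.

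Of 13 T and NK cell markers, CD2 and CD5 were higher at an unadjusted p under 0.05. CD2 was very low, at 0.421 to 0.783 FPKM in pubertal and 0.036 to 0.152 FPKM in prepubertal goats. CD5 was at 1.78 to 2.24 FPKM in pubertal and 1.36 to 1.56 FPKM in prepubertal goats. The summed level of the list was 30.4 to 37.6 FPKM in pubertal and 32.3 to 38.6 FPKM in prepubertal goats. Most of that sum was CD247, at 18.9 to 25.4 FPKM. Of the T cell markers, CD3E was at 1.56 to 3.74 FPKM and CD8B at 1.26 to 2.93 FPKM over the 6 libraries, and CD3D and CD4 were below 0.7 FPKM in all 6. Of 8 B cell and 5 dendritic cell markers 0 were at an unadjusted p under 0.05, with summed levels of 17.7 to 19.6 and 20.2 to 25.3 FPKM in pubertal and 16.2 to 17.9 and 23.2 to 24.6 FPKM in prepubertal goats. Of 7 endothelial markers, VWF, the clotting protein of vessel walls, was higher at an unadjusted p under 0.05 (log2 difference 0.58), and the summed level was 47.3 to 71.7 and 41.3 to 55.8 FPKM.

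Markers of meningeal fibroblasts had the largest median log2 difference of the marker lists, 1.16, and 4 of 6 were higher at an unadjusted p under 0.05. DCN, a proteoglycan of connective tissue, and the collagen gene COL1A1 had log2 differences of 1.24 and 1.41. The summed level of the list was 190.9, 161.2 and 317.5 FPKM in pubertal and 100.7, 136.2 and 134.2 FPKM in prepubertal replicates 1 to 3, with no overlap. PDGFRA, which glial precursors also express, was at 52.1 to 59.4 FPKM in pubertal and 52.7 to 58.9 FPKM in prepubertal goats. The share of meningeal and vessel tissue in the differences of the antigen presentation genes was not tested.

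All 9 neuron markers had a lower pubertal mean, with a median log2 difference of -0.18, and 1 was lower at an unadjusted p under 0.05 (SLC32A1, the GABA transporter of vesicles). In the remaining lists, at the same threshold, of 6 astrocyte markers 1 was higher (ALDH1L1), of 7 hypothalamus markers POMC and GNRH1 were higher and AGRP was lower, and of 5 choroid plexus markers, 4 oligodendrocyte markers and 1 red blood cell marker tested 0 were called. The summed level of the neuron markers was 1170 to 1444 FPKM in pubertal and 1372 to 1473 FPKM in prepubertal goats, and that of the oligodendrocyte markers was 1113 to 3996 and 613.3 to 1570 FPKM.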

How the data were processed

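RNA of 6 hypothalami was depleted of ribosomal RNA, made into strand-specific libraries and sequenced in pairs by the authors, who aligned reads with TopHat and assembled transcripts with Scripture and Cufflinks. The submitters' processing notes name Cufflinks 2.1.1 and Cuffdiff 2.1.1. The genome build is not given in the sources used here. The authors deposited FPKM per transcript and library, normalized for length and depth. Their table of comparisons holds group means, fold changes, p-values and q-values, of which none was used, and it gave the transcript's gene, of which 94.4% matched a RefSeq symbol. The transcript lengths in the deposited files served to estimate fragments.

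FPKM was summed by gene, and log2(FPKM + 1) was fitted over 16397 genes whose mean FPKM was 0.1 or more, in limma 3.58.1 (R 4.3.3, eBayes with a trend, two-sided), which was tested on simulated data. Ratios and correlations had exact permutation tests in Python 3.11.15 with numpy 2.4.6, pandas 2.3.3 and scipy 1.17.1, and plots were made with matplotlib 3.10.9. Low FPKM values of long genes with 1 transcript were whole multiples of 1 step per library within 0.1 in 100% of cases. Fragments per gene were estimated from these steps, so they are estimates and their errors cover counting only. Labels give each library a number, with nothing to pair the goats. The limma p-values set a difference against a spread between goats that eBayes moderates with the spread of all genes. It can therefore be larger or smaller than a gene's own spread. The permutation p-values use the values of the goats alone.

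The members, lists, ratios and tests were chosen with earlier results of these data known. The rule for names took all members, PSMB5 to PSMB7, the 3 genes of each list with the highest mean FPKM, and the 3 most like B2M and CD74. It also took list genes with an adjusted p under 0.05, of which there were none, and MHC heavy chain genes. The heavy chain genes were planned but could not be found by symbol. For the marker lists the rule was not followed: single markers were named after their values were seen, and the rest are given as counts and sums. Fragment estimates, gene neighbours and correlations with the stage means taken off were added after the data were seen. A motif search in promoters was planned and not run, since no promoter sequence was used here. Alternatives were another pseudocount, other minimum FPKM, quantile normalization, median centring, no trend, the most abundant transcript, single transcripts, a replicate block and leaving out each library. One gene of the interferon gamma list is not reported here.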

Additional observations from a re-analysis of the deposited data

How the results depend on the processing

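No antigen presentation gene reached an adjusted p under 0.05 under any alternative, and B2M, TAP1, PSMB9 and CD74 kept an unadjusted p under 0.05 in 15 of 15. After the stage mean of each gene was taken off, same-numbered goats of the 2 stages correlated at -0.03, -0.10 and 0.08. Goats with unlike numbers correlated at -0.118 to 0.157, so that the numbers gave no sign of pairing. With the replicate block 1 gene of all had an adjusted p under 0.05, and CD74 had an unadjusted p of 0.00037 (limma adjusted p 0.316). Leaving out 1 library gave 0 to 4 such genes (4 without pubertal replicate 2), 336 to 981 genes higher and 164 to 1239 lower at an unadjusted p under 0.05. The extremes came from leaving out prepubertal replicate 1 (336 and 164) and pubertal replicate 1 (981 and 1239). The count of lower genes was 407 with median centring and 476 with single transcripts. The class I median was 0.41 at a pseudocount of 0.1 and 0.21 to 0.38 without 1 library. The class II median was 0.97 at a minimum of 1 FPKM, where CIITA dropped out, and 0.38 (without pubertal replicate 3) to 0.84 (without pubertal replicate 1) without 1 library. Among values near 0, quantile normalization turned PSMB10 to 0.0278, CTSB to 0.0154, HSPA5 to 0.0676 and PSME1 to 0.0183. Median centring turned CALR to -0.0298, CANX to -0.0288 and PSME3 to -0.0237, and the most abundant transcript turned CREB1 to 0.0318. Without 1 library the log2 difference crossed 0 for PSMB10 (-0.103 to 0.0248), CALR (-0.0231 to 0.0582), CANX (-0.0691 to 0.0604), CREB1 (-0.138 to 0.0041), CTSB (-0.0917 to 0.0126), CTSS (-0.0201 to 0.311), HSPA5 (-0.0529 to 0.0707), IFNGR1 (-0.151 to 0.213), NFYB (-0.191 to 0.0036), PSME2 (-0.0346 to 0.146) and PSME3 (-0.0355 to 0.0574). So did NLRC5/CIITA (-0.105 to 0.227), and r of B2M with PSMB8 (-0.0345 to 0.930) and with CIITA (-0.328 to 0.979). The cause was not tested. With 5 libraries the sign-flip test of the 6 ratios cannot reach 0.05. Depth limits CIITA and NLRC5 most.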
